A study of Mus musculus with 14 samples.

Results

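The mRNA levels of 10 heat shock chaperone genes were followed in mouse embryonic stem (ES) cells during treatment with an mTOR inhibitor. The genes were taken by name from the deposited expression tables, and all 10 were found among the 54446 gene identifiers measured. They are *Hsf1*, *Hspa8*, *Dnaja1*, *Hspa4*, *Hsph1*, *Hsp90aa1*, *Hsp90ab1*, *Hspa9*, *Hspd1* and *Hspe1*. All 10 passed the filter on low values, together with 18232 genes in all. The samples were 14 RNA-seq libraries of the feeder-free E14 line. There were 8 wild-type libraries, taken at 0, 24, 72 and 144 h of the inhibitor Ink128 (mTORi), and 6 were labelled *Tet1/2* double knockout (DKO), at 0, 24 and 72 h. All cells were grown in serum with LIF on gelatin, the 0 h cells received no inhibitor, and each of the 7 groups has 2 replicates. The DKO cells came from wild-type E14 cells cut with Cas9 and grown up from single sorted cells, so a clonal difference and the genotype cannot be told apart.

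Heat shock proteins keep other proteins folded. In the cytosol, the HSP70 protein HSPA8 binds unfolded stretches of new proteins, J proteins such as DNAJA1 deliver clients and start its ATP cycle, and the HSP110 proteins HSPA4 and HSPH1 reset it by exchanging the nucleotide. HSP90, made from *Hsp90aa1* and *Hsp90ab1*, takes over many signalling proteins at a late folding step. In mitochondria, HSPA9 pulls imported proteins in, and the chaperonin HSPD1 encloses them under its lid, HSPE1. HSF1 is the transcription factor that raises many of these genes under stress. It binds alternating GAA and TTC units, the heat shock element. mTOR promotes protein synthesis, and its inhibition holds ES cells in a paused, slowly growing state.

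The members lie apart in the mouse genome, except for *Hspd1* and *Hspe1*. In the coordinates of the deposited tables (mm10), *Hspd1* (ENSMUSG00000025980.14) spans chr1:55077835-55088243 on the - strand and *Hspe1* (ENSMUSG00000073676.4) chr1:55088132-55091307 on the + strand. The cytosolic HSP70 system is spread over chr9:40800984-40810087 (+) for *Hspa8*, chr4:40722150-40737149 (+) for *Dnaja1*, chr11:53259814-53300457 (-) for *Hspa4* and chr5:149614287-149636376 (-) for *Hsph1*. *Hsp90aa1* is at chr12:110690605-110702728 (-), *Hsp90ab1* at chr17:45567775-45573271 (-) and *Hsf1* at chr15:76477422-76501913 (+).

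The starts of these genes were searched for that element, since it is the sequence that HSF1 is known to bind. RefSeq promoter sequences (GRCm38.p6, 250 bases before and 50 after each start) were in hand for 5 members, *Hspd1*, *Hspe1*, *Hsph1*, *Dnaja1* and *Hspa4*. The other members are *Hsf1*, *Hspa8*, *Hsp90aa1*, *Hsp90ab1* and *Hspa9*. The searched letters were GAANNTTC and TTCNNGAA, each its own reverse complement, so that both strands were covered. Either was found in 15.1% of all 32851 promoter entries, and in at least 1 entry of 4 of the 5 members. A run of 3 alternating units, GAANNTTCNNGAA or TTCNNGAANNTTC, was found in 0.603% of all entries and in 3 of the 5 members. Members are counted here by any of up to 3 entries each, and a site shared by *Hspd1* and *Hspe1* counts for both, so these counts are not rates per entry. Windows of 30 bases around the matches are shown here, with the matching units in capitals, together with 100 bases before the *Hspa4* start, which held no match:
*Hspd1* and *Hspe1*, chr1:55088053-55088082, + strand: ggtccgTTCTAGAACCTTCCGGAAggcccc
*Hsph1*, chr5:149636351-149636380, - strand: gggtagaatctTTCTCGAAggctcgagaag
*Hsph1*, chr5:149636287-149636316, - strand: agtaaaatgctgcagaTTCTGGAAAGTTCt
*Dnaja1*, chr4:40722333-40722362, + strand: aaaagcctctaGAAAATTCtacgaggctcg
*Hspa4*, chr11:53300480-53300579, - strand: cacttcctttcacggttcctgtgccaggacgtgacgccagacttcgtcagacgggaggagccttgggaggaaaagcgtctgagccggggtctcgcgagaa

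*Hspd1* and *Hspe1* lie head to head on chromosome 1, with 215 bases between their RefSeq starts, and the first window sits between those starts and belongs to both. Its 18 capital bases hold 4 alternating units without a gap. A run of 4 such units with 2 bases of any kind between them, starting with TTC or with GAA, was found in 8 of the 32851 entries (0.0244%), and the order shown, TTC first, in 5. Both orders read the same on the opposite strand. Those 5 entries belong to *Hspd1*, *Hspe1*, *Chordc1*, *Arpc2* and *Fam149a*, and *Chordc1* encodes a co-chaperone of HSP90. The run begins 89 bases before the *Hspe1* start. In *Hsph1*, the match of 2 units begins 33 bases before the start and the match of 3 units 36 bases after it. The *Dnaja1* match begins 124 bases before its start. In GENCODE, the first window overlaps an exon of *Hspd1*, both *Hsph1* windows an exon of *Hsph1*, the *Dnaja1* window exons of *Dnaja1* and *Gm6297*, and the *Hspa4* window none. A match to these letters is a description of the sequence, and binding by HSF1 was not measured.

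Expression was deposited as TPM, a level per transcript length that adds up to the same total in every library. Such plain TPM cannot show a change in the amount of RNA per cell. The libraries carried ERCC spike-in RNA, and each library was therefore also scaled by the study's spike-in factor, giving normalized TPM. Factors lay between 2.11 and 2.81 at 0 h, between 1.36 and 2.53 at 24 and 72 h, and between 1.0 and 1.07 at 144 h, so the scaled level of nearly all genes moves with time. The median gene fell by 0.83 on the log2 scale at 144 h in wild type, and the same median in plain TPM was 0.05. Both scales are given here. The deposited TPM hold no read counts, so read depth was not analysed here, and *n* = 2 limits the precision. *Tet2* mRNA was 27.1 to 55.0 normalized TPM in the DKO libraries and 129 to 210 in wild type. *Tet1* mRNA did not separate the genotypes (238 to 602 in DKO, 344 to 516 in wild type). The guides were aimed at an early and a late exon of each gene, and TPM over the whole gene also count RNA from outside the deleted part. Whether such RNA accounts for the *Tet1* values was not tested. The study's methods describe PCR and western blot checks of the knockout. All 6 ES cell markers checked were above 0 in every library, with summed plain TPM of 2193 to 2810, and the 5 fibroblast markers summed to 2.53 to 18.5. The sums were 10.3 to 55.7 for 4 trophectoderm markers and 5.35 to 17.4 for 3 neural markers. At 144 h in wild type, 3 of 6 ES cell, 2 of 3 tested trophectoderm and 1 of 3 neural markers were called lower on the normalized scale. Of all genes, 50.5% were. Of 4 primitive endoderm markers, 3 were called higher in wild type at 24 h on the normalized scale and all 4 in plain TPM. Over all genes, 1.25% and 15.8% were called higher there. The markers' summed plain TPM was 6.43 to 15.7 at 0 h, 50.3 to 82.7 at 24 h and 3.46 to 4.23 at 144 h. In DKO at 24 h none was called higher on the normalized scale. Their summed plain TPM in DKO was 5.94 to 17.8 at 0 h and 13.0 to 33.0 at 24 h. Any part of these markers in the chaperone levels was not tested.

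Before treatment, the chaperones were among the most abundant mRNAs of these cells. In wild type at 0 h the mean plain TPM was 3152 for *Hsp90ab1*, 2632 for *Hsp90aa1* and 2348 for *Hspa8*, which ranked 20, 28 and 34 of all genes. *Hspd1* followed at 1102, then *Hspa9* at 575 and *Hspe1* at 562, whose libraries overlapped, then *Hspa4* at 405, *Hsph1* at 199 and *Dnaja1* at 177. *Hsf1* stood below the other members at 29.3 plain TPM, at rank 4576. The 10 genes together held 1.11% and 1.13% of all TPM in the wild-type libraries at 0 h. That share was 0.823% to 1.1% in the other wild-type libraries and 0.860% to 1.1% in the DKO libraries. In wild type, the 3 mitochondrial members held 0.221% and 0.226% of all TPM at 0 h and 0.143% and 0.148% after 24 h of mTORi. They held 0.156% and 0.130% after 72 h, and 0.160% and 0.162% after 144 h. The 7 cytosolic members held 0.884% and 0.905% at 0 h, 0.895% and 0.956% after 24 h, 0.823% and 0.693% after 72 h, and 0.905% and 0.869% after 144 h. In DKO, the mitochondrial share was 0.221% and 0.250% at 0 h against 0.138% and 0.150% after 24 h, and the cytosolic share 0.788% and 0.848% against 0.788% and 0.781%. After 72 h in DKO the mitochondrial share was 0.164% and 0.190% and the cytosolic share 0.697% and 0.758%.

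**Figure D1:**
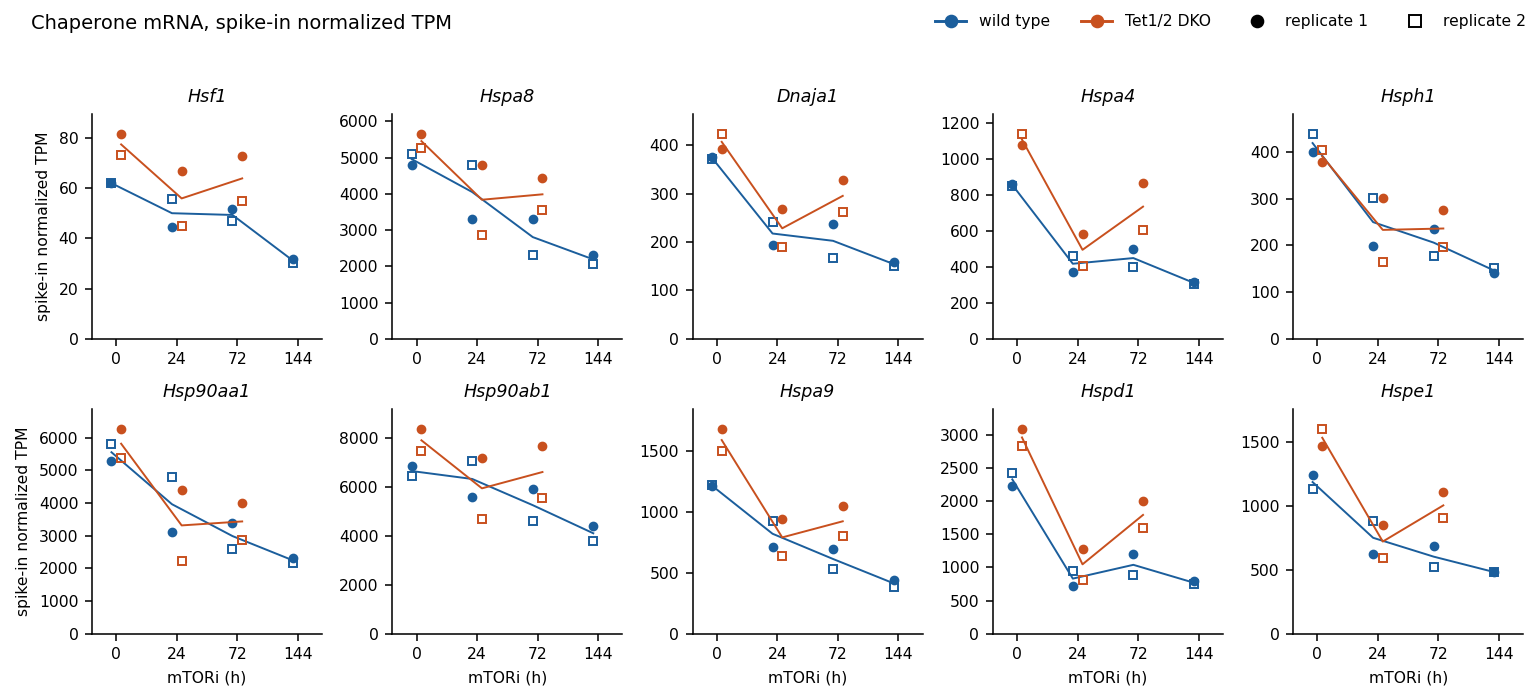
Normalized TPM (spike-in scaled, linear axis from 0) of each member against time of mTORi in h, for wild type in blue and *Tet1/2* DKO in orange, with filled circles for replicate 1, open squares for replicate 2 and lines through the group means. The wild-type 144 h mean is the lowest of the 7 groups for all 10 genes, and the DKO 0 h mean is the highest for 9 of them.

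On the normalized scale, all 10 members had lower fitted levels than at 0 h in each of the 5 comparisons of a treated group with its own 0 h cells. Calls were made with limma at an adjusted p under 0.05 over all 18232 genes. In wild type, 2 of 10 members fell after 24 h, 6 after 72 h and 9 after 144 h, and none rose. Of all genes, 8.73%, 7.6% and 50.5% were called lower at 24, 72 and 144 h, and 1.25%, 0.697% and 0.461% higher. The members had median log2 fold changes of −0.63, −0.92 and −1.30 at these times, beside −0.33, −0.33 and −0.83 over all genes. In DKO, 5 of 10 members fell at 24 h, when 18.7% of all genes were called lower, and 0 of 10 at 72 h, when 2.95% were. None was called higher in DKO either, beside 0.505% and 0.713% of all genes. Without the adjustment, 6 of the 10 had p under 0.05 in DKO at 72 h, beside 3588 of all 18232 genes. The members' medians were −0.87 and −0.61 in DKO, beside −0.49 and −0.12 over all genes.

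In plain TPM, which carries no change in total RNA, 3 of 10 members fell at 24 h in wild type, 7 at 72 h and 4 at 144 h, and 0 were called higher. The background on that scale was 14.1%, 11.4% and 11.7% called lower and 15.8%, 12.6% and 15.6% called higher. In DKO, 4 of 10 fell at 24 h and 4 of 10 at 72 h, beside 13.3% and 9.06% of all genes, and 0 were called higher, beside 11.6% and 17.2%. The members' median in plain TPM was −0.26, −0.49 and −0.27 in wild type at 24, 72 and 144 h, and −0.30 and −0.31 in DKO at 24 and 72 h. The median of all genes lay between −0.01 and 0.14 in these comparisons.

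With a term for the replicate number within each genotype, which the study's parallel processing of replicates allows, more members passed. On the normalized scale, 5, 8 and 10 of 10 were then called lower in wild type at 24, 72 and 144 h, beside 25.7%, 25.4% and 66.3% of all genes. In DKO, 7 were called lower at 24 h and 3 at 72 h, beside 38.1% and 13.2%. The added calls in wild type were *Dnaja1*, *Hsph1* and *Hspe1* at 24 h (adjusted p = 0.0131, 0.0238 and 0.0370), *Hsp90aa1* and *Hspa8* at 72 h (0.0175 and 0.0241) and *Hsp90ab1* at 144 h (0.0221). In DKO they were *Hsp90aa1* and *Hsph1* at 24 h (0.0133 and 0.0144) and *Hspa9*, *Hspd1* and *Hsph1* at 72 h (0.0196, 0.0371 and 0.0419). The counts also depended on single libraries, and the counts over all genes moved in the same direction in each case given here. The wild-type 72 h count fell from 6 to 0 without either wild-type 0 h library or without replicate 2 of the 72 h group, and to 1 without replicate 1 of that group or without either 144 h library. The 24 h count was 0 without replicate 1 of that group, 1 without either wild-type 0 h library and 5 without either DKO 24 h library. The DKO 24 h count was 1 without replicate 1 of DKO 0 h, 2 without its replicate 2, 1 without replicate 2 of DKO 24 h and 9 without its replicate 1. Without a filter on low values, 0 members passed at 72 h in wild type and 1 at 24 h, beside 639 and 910 of all 38890 genes called lower.

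**Figure D2:**
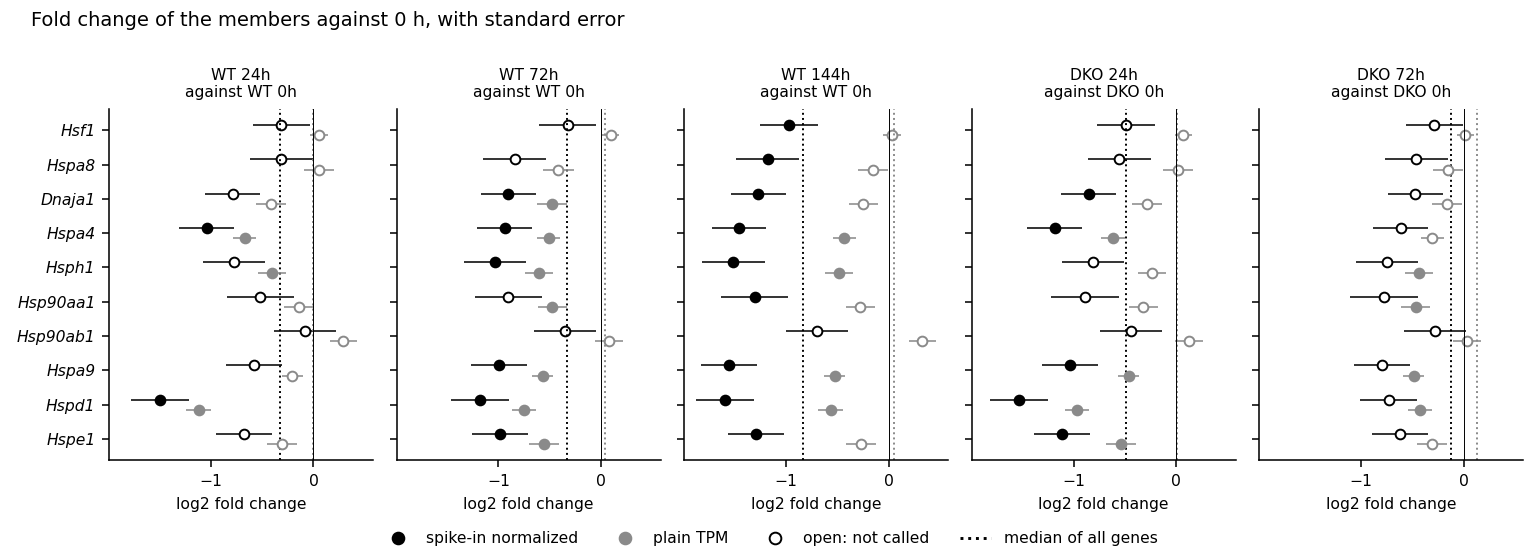
Log2 fold change against 0 h (points) with its standard error (bars) for each member in 5 comparisons, on normalized TPM in black and plain TPM in grey, filled where called at an adjusted p under 0.05. Dotted lines mark the median of all 18232 genes, and *Hspd1* lies farthest left at 24 h in both genotypes and on both scales.

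*Hsf1*, the regulator, changed about as much as the median gene at 24 and 72 h in wild type (log2 fold change −0.31 and −0.33, beside −0.33 at both times). Its normalized TPM was 61.9 and 62.0 in the wild-type libraries at 0 h, 44.4 and 55.6 at 24 h, 51.7 and 46.9 at 72 h, then 31.8 and 30.4 at 144 h. All treated wild-type libraries thus lay below both 0 h libraries, and the decrease was called at 144 h (log2 fold change −0.97 ± 0.28 SE, adjusted p = 0.00875), where the median gene changed by −0.83. That call was lost without any 1 of the wild-type 0 h or 144 h libraries, with adjusted p of 0.0505 to 0.0741. In plain TPM the direction turned and the level was nearly flat. All 14 libraries lay between 28.8 and 33.0, and the fold changes of the 5 comparisons lay between 0.02 and 0.09, none of them called.

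In the cytosolic HSP70 system, the HSP110 genes and the J protein gene had larger fitted decreases than *Hspa8* itself at 24 and 144 h in wild type, a difference that was not tested. *Hspa4* had 862 and 847 normalized TPM at 0 h in wild type, 372 and 461 at 24 h, 497 and 400 at 72 h, then 316 and 305 at 144 h. It was thus at 48.8% of its 0 h mean after 24 h (log2 fold change −1.04 ± 0.27 SE, adjusted p = 0.0180) and at 36.3% after 144 h (−1.46 ± 0.27, adjusted p = 0.000526). In plain TPM it was 408 and 401 at 0 h, 260 and 249 at 24 h, 301 and 268 at 72 h, then 295 and 305 at 144 h. *Hspa4* therefore fell on both scales at all 3 times, and in plain TPM its lowest group was 24 h, with an adjusted p of 0.00172 there. On the normalized scale the 24 h call was lost without either wild-type 0 h library or without replicate 1 of the 24 h group, with adjusted p of 0.105 to 0.194.

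*Hsph1*, the stress-inducible HSP110, had 400 and 438 normalized TPM at 0 h in wild type and 198 and 302 at 24 h, where it was not called (−0.77 ± 0.30, adjusted p = 0.107). At 144 h it had 141 and 151 normalized TPM (−1.51 ± 0.30, adjusted p = 0.000960). Its plain TPM fell from 190 and 207 to 138 and 163 at 24 h, 142 and 119 at 72 h, then 132 and 151 at 144 h, and all 3 decreases were called on that scale, with adjusted p of 0.0487, 0.0103 and 0.0247 in order of time. No treated wild-type library reached the level of a 0 h library on either scale.

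*Dnaja1* was 377 and 371 normalized TPM at 0 h in wild type, 193 and 242 at 24 h, 238 and 167 at 72 h, then 159 and 150 at 144 h. It was called at 72 h (adjusted p = 0.0420) and 144 h (−1.27 ± 0.27, adjusted p = 0.00129). In plain TPM the call held at 72 h (adjusted p = 0.0360) and not at 144 h, where the libraries stood at 148 and 150 against 178 and 176 at 0 h (adjusted p = 0.233). It overlaps *Smu1*, on the opposite strand, by 608 bases, and a strand setting for the quantification is not given in the sources used here, so reads there could be assigned to either gene. *Smu1* had 90.4 to 342 normalized TPM.

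*Hspa8*, the most abundant cytosolic HSP70 mRNA, had 4805 and 5107 normalized TPM at 0 h in wild type, 3306 and 4788 at 24 h, 3297 and 2313 at 72 h, then 2309 and 2072 at 144 h. It was called at 144 h (−1.18 ± 0.31, adjusted p = 0.00495; 0.0532 without replicate 2 of the 144 h group). In plain TPM, no wild-type comparison of *Hspa8* was called (adjusted p = 0.0648 at 72 h, and 0.0454 with the replicate term described above). Its plain level was 2276 and 2419 at 0 h and 2306 and 2583 at 24 h, a fitted change of 0.057 ± 0.15 with overlapping libraries, and so opposite in sign to the normalized value of −0.32 ± 0.31. That normalized value was −0.049 without replicate 1 of the 24 h group and −0.58 without replicate 2. In a given library the *Hspa8* to *Hspa4* ratio was 5.57 and 6.03 at 0 h, 8.88 and 10.4 at 24 h, 6.64 and 5.78 at 72 h, then 7.32 and 6.79 at 144 h. A ratio within a library does not depend on the spike-in factor. Both 24 h ratios lay above both 0 h ratios, a difference that was not tested.

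The HSP90 genes parted from each other. *Hsp90aa1*, the stress-inducible form, had 5302 and 5813 normalized TPM at 0 h in wild type and 2326 and 2167 at 144 h (−1.31 ± 0.33, adjusted p = 0.00403). *Hsp90ab1*, the constitutive form, had 6850 and 6460 at 0 h, then 4409 and 3812 at 144 h (−0.70 ± 0.30, adjusted p = 0.0594), and it was the only member not called there. With the replicate term its adjusted p was 0.0221. In plain TPM the direction turned for *Hsp90ab1*, from 3245 and 3060 at 0 h to 3897 and 3816 at 24 h, 3573 and 3098 at 72 h, then 4119 and 3812 at 144 h. These increases were not called in plain TPM (0.33 ± 0.13 and adjusted p = 0.0921 at 144 h), and with both plain TPM and the replicate term the 144 h increase was (adjusted p = 0.0371). Under both together, 19.9% of all genes were called higher in that comparison. *Hsp90aa1* in plain TPM was called lower at 72 h (adjusted p = 0.0327) and not at 24 or 144 h.

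The *Hsp90ab1* to *Hsp90aa1* ratio within a library was 1.29 and 1.11 in wild type at 0 h, 1.79 and 1.47 at 24 h, 1.75 and 1.77 at 72 h, then 1.90 and 1.76 after 144 h. In DKO it was 1.34 and 1.39 at 0 h, 1.63 and 2.11 at 24 h, then 1.91 and 1.94 at 72 h. Every treated library had a higher ratio than every 0 h library, in both genotypes. The ratios are given as a description and were not tested.

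**Figure D3:**
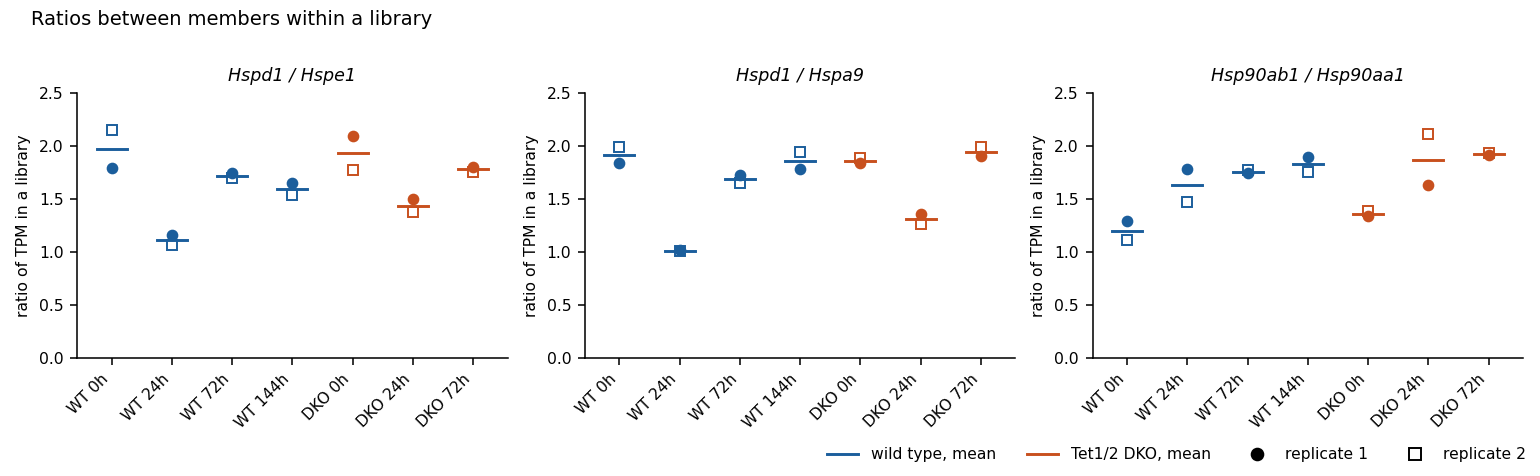
Ratio of TPM within a library (linear axis from 0) for 3 pairs of members in the 7 groups, with filled circles for replicate 1, open squares for replicate 2 and bars at the mean of wild-type (blue) and DKO (orange) libraries. Both ratios of *Hspd1* are lowest at 24 h in each genotype, and the HSP90 ratio is lowest at 0 h.

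Among the members, the largest change at 24 h was in the mitochondrial chaperonin gene. *Hspd1* had 2224 and 2427 normalized TPM at 0 h in wild type, 724 and 939 at 24 h, 1196 and 882 at 72 h, then 792 and 746 at 144 h. After 24 h it was at 35.7% of its 0 h mean (−1.49 ± 0.28 SE, adjusted p = 0.00292), the largest fitted change among the 10 members at that time. Without replicate 1 of the 24 h group the change was −1.31 ± 0.36, with an adjusted p of 0.0518. It was also called at 72 h (−1.18 ± 0.28, adjusted p = 0.0157) and 144 h (−1.59 ± 0.28, adjusted p = 0.000399). In plain TPM it went from 1054 and 1150 at 0 h to 505 and 506 at 24 h, then 724 and 592 at 72 h, then 740 and 746 at 144 h. The plain level was thus lowest at 24 h and lay between the 24 h and 0 h levels at both later times, and all 3 decreases were called on that scale, with an adjusted p of 0.000152 at 24 h.

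*Hspe1*, which shares the upstream region printed above with *Hspd1*, changed less at 24 h. Its normalized TPM was 1243 and 1130 at 0 h in wild type, 621 and 880 at 24 h, 687 and 520 at 72 h, then 480 and 485 at 144 h. It was not called at 24 h (−0.68 ± 0.27, adjusted p = 0.115; 0.0370 with the replicate term) and was called at 72 h (adjusted p = 0.0316) and 144 h (−1.29 ± 0.27, adjusted p = 0.00130). In plain TPM its decrease was called at 72 h (adjusted p = 0.0205) and not at 24 or 144 h. The *Hspd1* to *Hspe1* ratio within a library was 1.79 and 2.15 at 0 h, 1.16 and 1.07 at 24 h, 1.74 and 1.70 at 72 h, then 1.65 and 1.54 at 144 h. The genes overlap by 112 bases on opposite strands, and the 5 pseudogene entries named for *Hspd1* held at most 2.09% of its TPM in any library.

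*Hspa9*, the mitochondrial HSP70, had 24 h levels in wild type between those of 0 h and of later times on both scales. Its normalized TPM was 1208 and 1220 at 0 h, 712 and 929 at 24 h, 692 and 534 at 72 h, then 444 and 384 at 144 h. The call was made at 72 h (−1.0 ± 0.27, adjusted p = 0.0303) and 144 h (−1.55 ± 0.27, adjusted p = 0.000390). Its plain TPM was 572 and 578, 496 and 501, 419 and 358, and 415 and 384 in the same order, called lower at 72 h (adjusted p = 0.00369) and 144 h (adjusted p = 0.00495). The *Hspd1* to *Hspa9* ratio was 1.84 and 1.99 at 0 h, 1.02 and 1.01 at 24 h, and between 1.65 and 1.94 at 72 and 144 h.

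**Figure D4:**
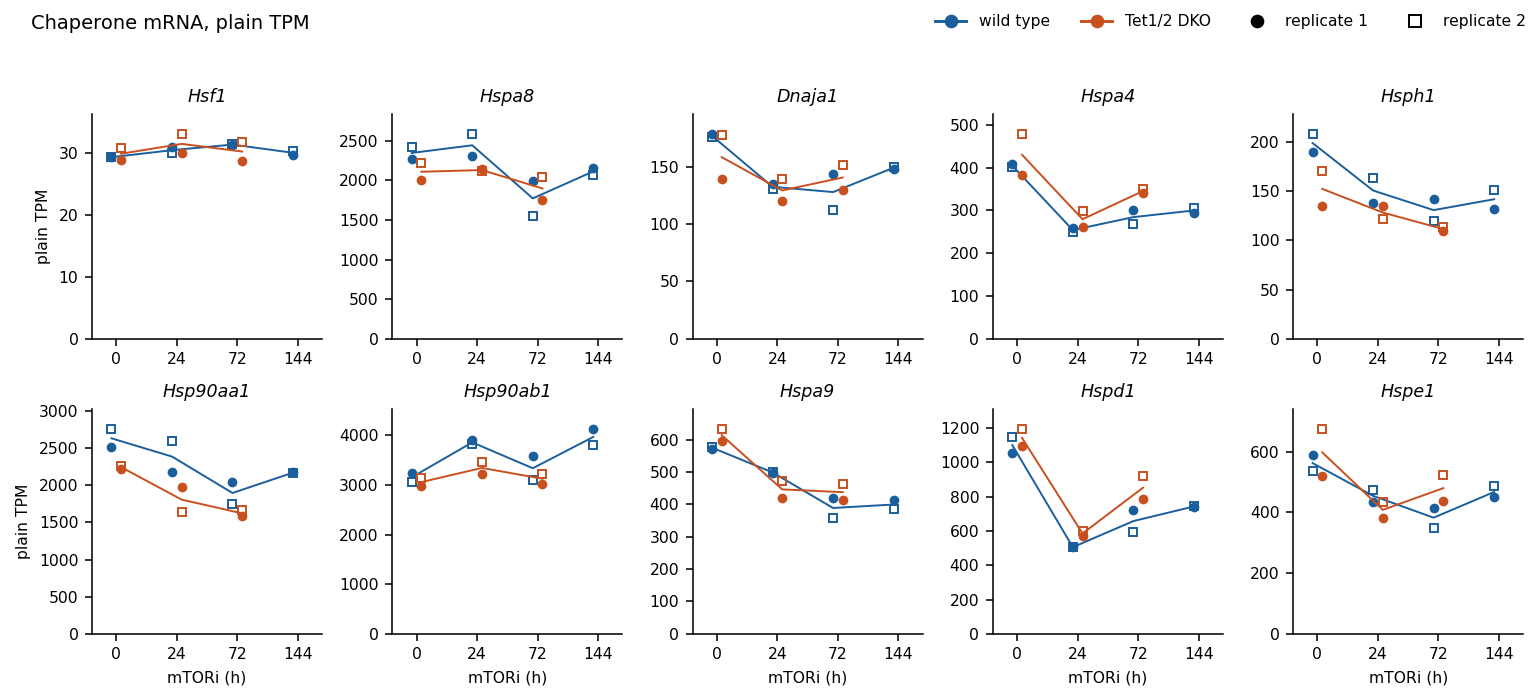
Plain TPM (linear axis from 0) of each member against time of mTORi in h, with wild type in blue, *Tet1/2* DKO in orange, filled circles for replicate 1, open squares for replicate 2 and lines through the group means. *Hspd1* dips at 24 h in both genotypes, *Hsf1* stays between 28.8 and 33.0, and *Hsp90ab1* in wild type is above both 0 h libraries at 24 and 144 h.

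The normalized TPM of *Hspd1* in DKO was 3080 and 2834 at 0 h, 1282 and 811 at 24 h, then 1994 and 1587 at 72 h, and the decrease was called at 24 h (−1.53 ± 0.28, adjusted p = 0.00147) and not at 72 h (−0.73 ± 0.28, adjusted p = 0.148). In plain TPM it went from 1094 and 1193 to 574 and 597 at 24 h (adjusted p = 0.000432) and 787 and 919 at 72 h (adjusted p = 0.0249). The *Hspd1* to *Hspe1* ratio was 2.10 and 1.77 at 0 h, 1.5 and 1.37 at 24 h, then 1.80 and 1.76 at 72 h, so it too was lowest at 24 h. *Hspa4* fell from 1077 and 1135 normalized TPM to 584 and 404 at 24 h (−1.18 ± 0.27, adjusted p = 0.00543) and stood at 862 and 605 at 72 h, where it was not called (adjusted p = 0.207). Its plain TPM in DKO was 383 and 478, then 261 and 298, then 340 and 350, and so was also lowest at 24 h.

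The other members called in DKO at 24 h on the normalized scale were *Dnaja1* (adjusted p = 0.0315), *Hspa9* (adjusted p = 0.0136) and *Hspe1* (adjusted p = 0.00901). *Hspa9* had 1676 and 1500 normalized TPM at 0 h against 941 and 640 after 24 h. In plain TPM, *Hspa4*, *Hspa9*, *Hspd1* and *Hspe1* were called at 24 h. At 72 h in DKO, *Hsp90aa1*, *Hspa9*, *Hspd1* and *Hsph1* were called lower in plain TPM, with adjusted p of 0.0336, 0.00820, 0.0249 and 0.0391, and on the normalized scale none was.

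The remaining DKO levels ran as follows on the normalized scale. *Hspe1* had 1467 and 1599 at 0 h, 853 and 590 at 24 h, then 1106 and 903 at 72 h, and *Dnaja1* had 391 and 422, then 268 and 189, then 328 and 262. *Hsp90aa1* had 6258 and 5379, then 4408 and 2228, then 4008 and 2871, and *Hsph1* had 378 and 403, then 302 and 164, then 277 and 196. In these 4 genes no treated DKO library reached a DKO 0 h library. *Hspa8* had 5640 and 5264, then 4798 and 2873, then 4430 and 3540, *Hsp90ab1* had 8361 and 7463, then 7193 and 4702, then 7667 and 5564, and *Hsf1* had 81.4 and 73.4, then 66.9 and 44.8, then 72.9 and 54.8. Of these 3 genes, *Hsp90ab1* overlapped its 0 h libraries at 72 h, and the fitted changes of the 3 were not called at either time. In plain TPM they lay between −0.15 and 0.13 (log2), with *Hsf1* and *Hsp90ab1* above 0 at both times and *Hspa8* above 0 at 24 h.

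No member was called between DKO and wild type at any time on either scale. On the normalized scale, 0.0439% of all genes were called at 0 h, 0.0439% after 24 h and 0.329% after 72 h, and in plain TPM 0.598%, 1.37% and 4.01%. At 72 h, 4 of the 10 members had an unadjusted p under 0.05 on the normalized scale and 2 in plain TPM, and at 0 h and 24 h 0 did on the normalized scale and 1 in plain TPM. Over all 18232 genes, 4193 (normalized) and 3871 (plain) passed that unadjusted cutoff in the 72 h comparison. Genes passing it numbered 1523 (normalized) and 2530 (plain) for 0 h, then 755 (normalized) and 2699 (plain) for 24 h. The members' median difference (DKO minus wild type) was 0.28, −0.06 and 0.54 at 0, 24 and 72 h on the normalized scale, beside 0.29, 0.10 and 0.49 over all genes. In plain TPM it was −0.01, −0.16 and 0.12. The largest difference at 72 h was in *Hspd1*, with 1994 and 1587 normalized TPM in DKO and 1196 and 882 in wild type, groups that do not overlap (0.79 ± 0.28 SE, adjusted p = 0.166). *Hspe1* was next, with 1106 and 903 in DKO against 687 and 520 in wild type (0.74 ± 0.27, adjusted p = 0.174). *Hspa4* followed, with 862 and 605 in DKO against 497 and 400 in wild type (0.70 ± 0.27, adjusted p = 0.182). The *Hspa4* difference was 0.44 without replicate 1 of DKO 72 h and 0.95 without replicate 2.

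The responses of the genotypes were also compared directly, as the change from 0 h in DKO minus that in wild type. No member was called at 24 h or at 72 h, and over all genes 0.00548% and 0.0% were. The members' median difference was −0.21 at 24 h (all genes −0.19) and 0.31 at 72 h (all genes 0.21), and the sign of the all-gene median turned at 24 h without replicate 2 of DKO 24 h (0.17) and at 72 h without replicate 1 of DKO 72 h (−0.054). These comparisons share the 0 h libraries at both times.

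Beyond the 10 members, 74 further chaperone and co-chaperone genes were listed, of which 72 were tested. On the normalized scale in wild type, 20 of the 72 were called lower after 24 h, 14 after 72 h and 63 after 144 h, and none was called higher, against the background of 8.73%, 7.6% and 50.5% of all genes called lower. In plain TPM, 30, 28 and 19 were called lower and 3, 2 and 2 higher, where 14.1%, 11.4% and 11.7% of all genes were lower and 15.8%, 12.6% and 15.6% higher. Leaving out 1 library gave, on the normalized scale, 2 to 35 called lower at 24 h, 0 to 41 at 72 h and 42 to 65 at 144 h. The lowest counts were without replicate 2 of wild type at 0 h (24 and 72 h), without replicate 2 of the 72 h group (72 h) and without replicate 2 of the 144 h group (144 h), and the highest without either DKO 24 h library. Their median log2 fold change at 144 h was −1.20 on the normalized scale and −0.21 in plain TPM, beside −0.83 and 0.05 over all genes. Of the chaperones of the endoplasmic reticulum (ER), 8 of 10 were called lower at 24 h on each scale, with a median of −1.04 normalized and −0.67 in plain TPM. The normalized count was 0 without replicate 2 of wild type at 0 h, 4 without its replicate 1 and 2 without replicate 1 of the 24 h group. At 72 h, 0 of the 10 were called lower on the normalized scale (median −0.64; 0 to 5 with 1 library left out) and 2 in plain TPM (median −0.22). At 144 h, 10 of the 10 were called lower on the normalized scale (median −1.37), when 50.5% of all genes were. *Hspa5*, the ER HSP70, had 873 and 1025 normalized TPM at 0 h and 364 and 362 at 24 h (−1.38 ± 0.26, adjusted p = 0.00292). It had 637 and 533 at 72 h (−0.70 ± 0.26, adjusted p = 0.0975), and 361 and 306 at 144 h (−1.50 ± 0.26, adjusted p = 0.000354). *Pdia6*, a disulfide isomerase, fell by 1.40 ± 0.26 on the log2 scale at 24 h (adjusted p = 0.00292) and *Dnajb11*, the J protein partner of HSPA5, fell by 1.52 ± 0.28 at 144 h (adjusted p = 0.000485).

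**Figure D5:**
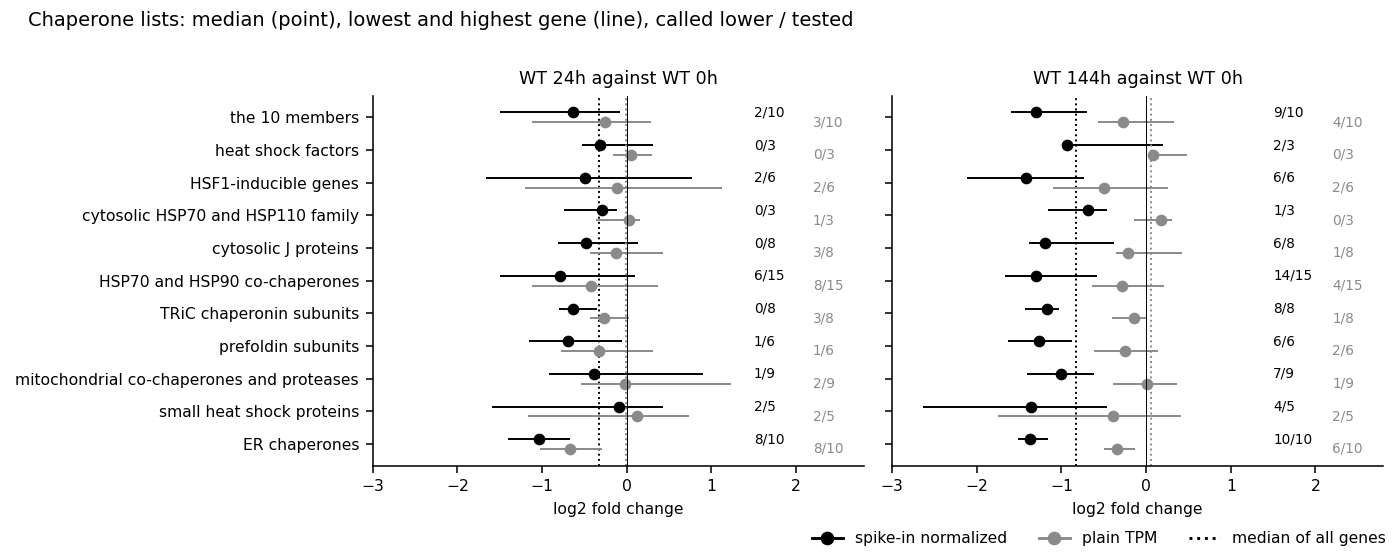
Log2 fold change at 24 h and 144 h against 0 h in wild type for the 10 members and 10 chaperone lists, with points at the list median, lines from the lowest to the highest gene, black for normalized and grey for plain TPM, and the number called lower of those tested at the right. Dotted lines mark the median of all genes, and the ER chaperones have 8 of 10 called lower at 24 h on both scales, a count that was 0 to 8 on the normalized scale with 1 library left out.

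The co-chaperones of HSP70 and HSP90 had 6 of 15 called lower at 24 h and 14 of 15 at 144 h on the normalized scale, and 8 and 4 in plain TPM. Over all genes, 8.73% and 50.5% were called lower normalized and 14.1% and 11.7% in plain TPM. The normalized count at 24 h was 1 without replicate 2 of wild type at 0 h or replicate 1 of the 24 h group, 2 without replicate 1 at 0 h and 10 without either DKO 24 h library. *Fkbp5*, an HSP90-binding prolyl isomerase, had 209 and 189 normalized TPM at 0 h, 65.8 and 74.5 at 24 h, then 65.9 and 58.5 at 144 h. Its log2 fold change was −1.49 ± 0.27 at 24 h (adjusted p = 0.00221) and −1.66 ± 0.27 at 144 h (adjusted p = 0.000242), and both calls also held in plain TPM. *Cdc37*, which brings kinases to HSP90, fell by 1.52 ± 0.29 at 144 h (adjusted p = 0.000687), and *Sugt1* fell by 1.42 ± 0.29 (adjusted p = 0.00104). In plain TPM the *Cdc37* change at 144 h was −0.50 ± 0.25 (adjusted p = 0.175).

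Of 6 listed genes that HSF1 induces strongly under heat, 0 were called higher in wild type at 24 or 144 h on the normalized scale, beside 1.25% and 0.461% of all genes. At 24 h in wild type, 2 of 6 were called lower on the normalized scale, and at 144 h 6 of 6 were, when 8.73% and 50.5% of all genes were. In plain TPM at 144 h, 2 of 6 were called lower, when 11.7% of all genes were. Without replicate 2 of wild type at 0 h the counts were 0 and 3, without its replicate 1 the 24 h count was 1, without replicate 1 of the 24 h group it was 0, and without replicate 2 of the 144 h group the 144 h count was 3. *Hspa1b*, an inducible HSP70, had 10.8 and 12.3 normalized TPM at 0 h, 2.36 and 3.64 at 24 h, then 2.90 and 2.24 at 144 h (−1.81 ± 0.34, adjusted p = 0.000638), and its neighbour *Hspa1a* had 4.81 and 5.44, 1.06 and 2.28, and 1.97 and 1.14. These are near-identical copies whose reads can be split between them, so each value is uncertain. *Hspb1*, a small heat shock protein, had 1755 and 1485 normalized TPM at 0 h, 1329 and 1228 at 24 h, then 566 and 528 at 144 h (−1.56 ± 0.25, adjusted p = 0.000237). *Serpinh1*, a collagen chaperone of the ER, went the other way in wild type at 24 h, from 76.5 and 88.7 to 146 and 136 normalized TPM (0.76 ± 0.30, adjusted p = 0.104). It was called higher there in plain TPM (1.13 ± 0.15, adjusted p = 0.000577). At 144 h it was at 19.6 and 17.0 normalized TPM (−2.11 ± 0.30, adjusted p = 7.42e-05). In DKO its normalized mean was 128 at 0 h and 102 at 24 h, with overlapping libraries, and its plain mean was 48.8 and 57.2. *Dnajb1* and *Bag3* were called lower at 144 h on the normalized scale (−0.94 ± 0.29 and −0.74 ± 0.27, adjusted p = 0.0127 and 0.0323), and in plain TPM the direction turned (0.06 and 0.26, not called).

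The cytosolic chaperonin TRiC, which folds actin and tubulin, had 0 of 8 subunits called lower at 24 h and 8 of 8 at 144 h on the normalized scale, and 3 and 1 in plain TPM. Of all genes, 8.73% normalized and 14.1% in plain TPM were called lower at 24 h, and 50.5% and 11.7% at 144 h. These shares stand beside this paragraph's counts from the fit of all libraries. *Cct6a*, *Cct3* and *Cct7* fell by 1.43 ± 0.32, 1.34 ± 0.28 and 1.21 ± 0.28 at 144 h (adjusted p = 0.00209, 0.00128 and 0.00259). Of prefoldin, which hands clients to TRiC, 1 of 6 subunits was called lower at 24 h and 6 of 6 at 144 h, and *Pfdn1*, *Pfdn4* and *Vbp1* had log2 fold changes of −1.63, −1.48 and −1.45 at 144 h. Among cytosolic J proteins, 0 of 8 were called at 24 h and 6 of 8 at 144 h, led by *Dnaja2*, *Dnajc2* and *Dnajb6* with −1.38, −1.30 and −1.23. The mitochondrial co-chaperones and proteases had 1 of 9 called at 24 h and 7 of 9 at 144 h, led by *Grpel1*, *Clpp* and *Dnaja3* with −1.41, −1.40 and −1.20. In plain TPM, 2 of 6 prefoldin subunits, 1 of 8 J proteins and 1 of 9 of the mitochondrial list were called lower at 144 h. Without replicate 2 of the 144 h group the normalized counts at 144 h were 5 for TRiC, 4 for prefoldin, 3 for the J proteins and 3 for the mitochondrial list. Without the wild-type 0 h replicate 1 prefoldin had 3, and without replicate 2 the mitochondrial list had 4. At 24 h, without either DKO 24 h library, the counts were 3, 4, 3 and 2 in the same order, and prefoldin and the mitochondrial list had 0 without either wild-type 0 h library or without replicate 1 of the 24 h group.

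Of the other small heat shock proteins, 4 of 5 were called lower at 144 h on the normalized scale, and 2 lower and 1 higher in plain TPM, against 50.5% of all genes called lower on the first scale and 11.7% lower and 15.6% higher on the second. Without replicate 2 of the 144 h group, 2 were called lower on the normalized scale. *Cryab* went from 7.81 and 7.63 normalized TPM at 0 h to 0.415 and 0.387 at 144 h (−2.64 ± 0.47, adjusted p = 0.000441), and its libraries at 24 h lay apart at 21.3 and 5.15. *Hspb6* and *Hspb8* changed by −1.80 ± 0.32 and −1.36 ± 0.33 (adjusted p = 0.000448 and 0.00349). *Hspa14*, of the HSP70 family, was the 1 of 3 tested genes of its list called at 144 h (−1.16 ± 0.27, adjusted p = 0.00261), and in plain TPM none was (*Hspa14* −0.14 ± 0.09, adjusted p = 0.282). Of 3 tested heat shock factors, 2 were called lower at 144 h on the normalized scale, beside 50.5% of all genes. The changes on that list lay between −0.97 and 0.21. *Hsf2*, the second heat shock factor, changed by −0.93 ± 0.37 at 144 h (adjusted p = 0.0431), and by 0.077 in plain TPM. The normalized call was lost, and the change was −0.71 to −1.16, when any 1 of the wild-type 0, 72 or 144 h libraries was left out. Between DKO and wild type at 72 h, no gene of these lists was called on the normalized scale, and 3 of the 72 were called higher in DKO in plain TPM, where 3.17% of all genes were.

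In plain TPM, the members differed in how closely they moved together over the 14 libraries. Each gene was compared with the mean standardised log2 profile of the other 9. Pearson's r was highest for *Dnaja1* (0.89) and *Hspe1* (0.86), followed by *Hspa9* (0.76) and *Hsph1* (0.75), and it was below 0 for *Hsf1* (−0.31) and *Hsp90ab1* (−0.14). The same measure was taken with the mean profile of all 10 for 8758 genes with a mean of at least 10 plain TPM. The 5 genes most like it were *Phax* (r = 0.96), *Ltv1* (0.95), *Srfbp1* (0.95), *Rpl36al* (0.94) and *Ahsa1* (0.93). *Ahsa1* encodes an activator of the HSP90 ATPase and is on the co-chaperone list, *Phax* is an export adaptor of small nuclear RNA, and *Ltv1* is a factor of small ribosomal subunit assembly. The libraries share 7 groups and 4 times of treatment, so these values describe a likeness over the same time course.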

How the data were processed

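RNA-seq was analysed for 14 libraries. Per the labels and the methods, the authors depleted ribosomal RNA, added ERCC spike-ins, used cutadapt 2.4 for trimming, STAR for alignment (mm10) and StringTie for GENCODE VM19 transcripts; the labels give STAR 2.7.3a and StringTie 2.0. The deposited values are TPM, which keep no read counts and hold no ERCC entries. Entries with the same gene ID were summed. Each library was multiplied by the median ratio of the study's spike-in normalized table, held here in part, to its deposited TPM.

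Values were fitted as log2(TPM + 1) in limma 3.58.1 (R 4.3.3; empirical Bayes, mean-variance trend, 7 groups together) keeping the 18232 genes whose mean reached 1 normalized TPM, with Benjamini-Hochberg adjustment and calls at 0.05. A fold change on this scale understates the change of low genes. The study's own test, DESeq2, needs counts and was not used. The script was tested on simulated data.

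Members and lists were chosen with earlier results of these data known. The genes named from the lists were the heat shock inducible genes and, per list, up to 3 with the largest called change in wild type at 144 h and up to 2 between genotypes at 72 h; 5 genes were named for likeness to the members. *Chordc1*, *Arpc2*, *Fam149a*, *Gm6297* and *Smu1* were named after their values or sequences were seen. The alternatives were plain TPM, a pseudocount of 0.1, no filter, a replicate block within genotype or across all libraries, and leaving out each library.

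Replicate numbers were checked for pairing by correlating replicate differences across genes. The correlation was over 0.1 in 5 of 6 pairs of groups within wild type (0.0622 to 0.398) and 3 of 3 within DKO (0.222 to 0.341), and below 0 in 10 of 12 between genotypes. The study's Reporting Summary has the time points of 1 replicate handled in parallel, so the numbers pair libraries within a genotype. That summary calls the replicates biological and independent, and the labels do not say whether they were separate cultures, so p-values measure the spread between these libraries. GENCODE VM21 and RefSeq, both on GRCm38, gave the overlaps and sequences.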

Additional observations from a re-analysis of the deposited data

How the results depend on the processing

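Counts of calls moved with the scale, the block, the filter and single libraries. In plain TPM, the count of members called lower was 4 instead of 9 in wild type at 144 h and 4 instead of 0 in DKO at 72 h. The log2 fold change in plain TPM was above 0, opposite to the normalized value, for *Hsf1* in wild type at 24, 72 and 144 h (0.053, 0.094 and 0.033) and in DKO at 24 and 72 h (0.071 and 0.015), for *Hsp90ab1* in the same order (0.29, 0.078, 0.33, 0.13 and 0.031), for *Hspa8* at 24 h in wild type and DKO (0.057 and 0.016), and for *Dnajb1*, *Bag3* and *Hsf2* at 144 h (0.062, 0.26 and 0.077). The same values hold with plain TPM and the replicate block together, a setting chosen after seeing the data, under which 5 members were called lower in wild type at 24 h, 4 lower and 1 higher at 144 h, and 6 lower in DKO at 72 h. Over all genes, that setting called 17.7% lower in the first of these comparisons and 12.3% in the last. For wild type after 144 h, it called 15.6% of all genes lower, beside 19.9% higher.

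With the replicate block within genotype on normalized TPM, 5 members were called lower in wild type at 24 h and 3 in DKO at 72 h. It gives no value for DKO against wild type, since its replicate terms are nested in the genotype. Without the filter, 1 member was called lower in wild type at 24 h and 0 at 72 h, beside 910 and 639 of all 38890 genes. Leaving out 1 library at a time, the count called lower ranged from 0 to 5 in wild type at 24 h, 0 to 8 at 72 h and 7 to 10 at 144 h, and from 1 to 9 in DKO at 24 h and 0 to 1 at 72 h. A group left with 1 library is assumed there to vary like the others. The counts over all genes also moved with single libraries. The *Hsp90ab1* log2 fold change in wild type at 24 h ranged from −0.25 to 0.088, the latter without replicate 1 of that group. The pseudocount of 0.1 and the block across all libraries changed none of these counts by over 1.5 times. No member was called between genotypes or between responses under any setting run. The cause of these changes was not tested. Read depth was not analysed here.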

Other observations

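The spike-in factors were ratios of small whole numbers. Each of the 14 factors equalled 76 divided by a whole number between 27 and 76, with gaps of at most 0.000168 to that whole number, and both wild-type 0 h libraries had the same factor. How the factors came to this form was not tested. A change of 1 in the divisor would move the level by 3.7% in the library with the smallest divisor and by 1.32% in the library with the largest.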
